A study of Mus musculus with 4 samples.

Results

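The genes described here were 7 matrix proteases (Mmp2, Mmp3, Mmp9, Mmp13, Mmp14, Adamts4 and Adamts5) and 3 tissue inhibitors of metalloproteinases (Timp1, Timp2 and Timp3), 10 of the 32285 genes in the tables, taken as the rows that carry these symbols. All 10 had at least 1 unique molecular identifier (UMI, 1 captured RNA molecule) in mesenchymal cells of every library. They were followed in single-cell RNA-seq of tibial muscle from Nse-Bmp4 mice of the C57BL/6 strain, 6 to 8 weeks old, in which the neuron-specific enolase promoter drives Bmp4 and heterotopic ossification (HO), bone within soft tissue, develops after muscle injury. The muscles were uninjured or were taken 1, 3 or 7 days after cardiotoxin injury (dpi), and were dissociated with collagenase. The uninjured muscle carried the transgene too, and muscle without it was not analysed here. Each time point was 1 library that mixed 3 tibial muscles, so no time point had a replicate, the time point and the library cannot be told apart, and the intervals given are for counting error only.

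Matrix metalloproteinases (MMPs) are zinc enzymes that cut collagens and other matrix proteins outside the cell. MMP13 is a collagenase that opens fibrillar collagen and is a known product of hypertrophic cartilage and of osteoblasts, MMP2 and MMP9 are gelatinases that cut collagen once it has unfolded, MMP3 is a stromelysin with many substrates, and MMP14 is anchored in the cell membrane, where it can activate pro-MMP2. ADAMTS4 and ADAMTS5 are aggrecanases, which cut aggrecan and versican. TIMPs bind the active site of these enzymes. TIMP2 also takes part in the activation of pro-MMP2 by MMP14, and TIMP3, which stays bound to matrix, is the TIMP best known to block ADAMTS4 and ADAMTS5.

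The libraries held 12031 cells (uninjured), 11722 (1 dpi), 15160 (3 dpi) and 23752 (7 dpi), of which 10307, 9641, 12604 and 20300 passed the filters, with a median of 8638, 5896, 4338 and 3049 UMIs per kept cell. Cells were classed by the marker genes they carried. Mesenchymal cells had 4 or more of Prrx1, Pdgfra, Twist2, Twist1, Col1a1, Col1a2, Col3a1, Dcn and Lum, with at least 1 of the first 4, and no UMI of the leukocyte gene Ptprc. Cells with 5 or more cartilage markers and no Ptprc were counted with them, whether or not they met that rule, and are called chondrocytes below. Mesenchymal cells so counted numbered 8119, 3432, 5544 and 12101, of which 4576 at 7 dpi were chondrocytes. Myogenic cells, which the muscle label calls for, were found by markers such as Pax7 and Myod1 in each library but were few (146, 70, 167 and 197 cells). Between 30 and 95 cell barcodes were shared by each pair of libraries, and leaving out the cells that carried them moved none of the 30 step changes of the 10 genes beyond its interval. RNA of mesenchymal cells was also counted in cells of other classes: the summed level of the 9 mesenchymal markers in B cells was 716, 427, 741 and 4484 UMIs per 1000000 UMIs of the class (CPM). The gates of all classes other than mesenchymal cells and chondrocytes left out cells with a UMI of Prrx1, Pdgfra, Twist2 or Twist1. Such sums in these classes thus come from the other 5 of the 9 markers alone, and all 5 had a UMI in B cells of each library. In all series of values below the order is uninjured, 1, 3 and 7 dpi.

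Mesenchymal cells carried most UMIs of 8 of the 10 genes in every library, from 76.6% of those of Timp3 at 3 dpi to 98.9% of those of Mmp3 in uninjured muscle, while holding 85.3%, 44.4%, 58.8% and 74.8% of all UMIs. Mmp9, which belonged mainly to neutrophils until 3 dpi, and Mmp13, of which mesenchymal cells held 37.6% at 1 dpi, were the exceptions.

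**Figure D1:**
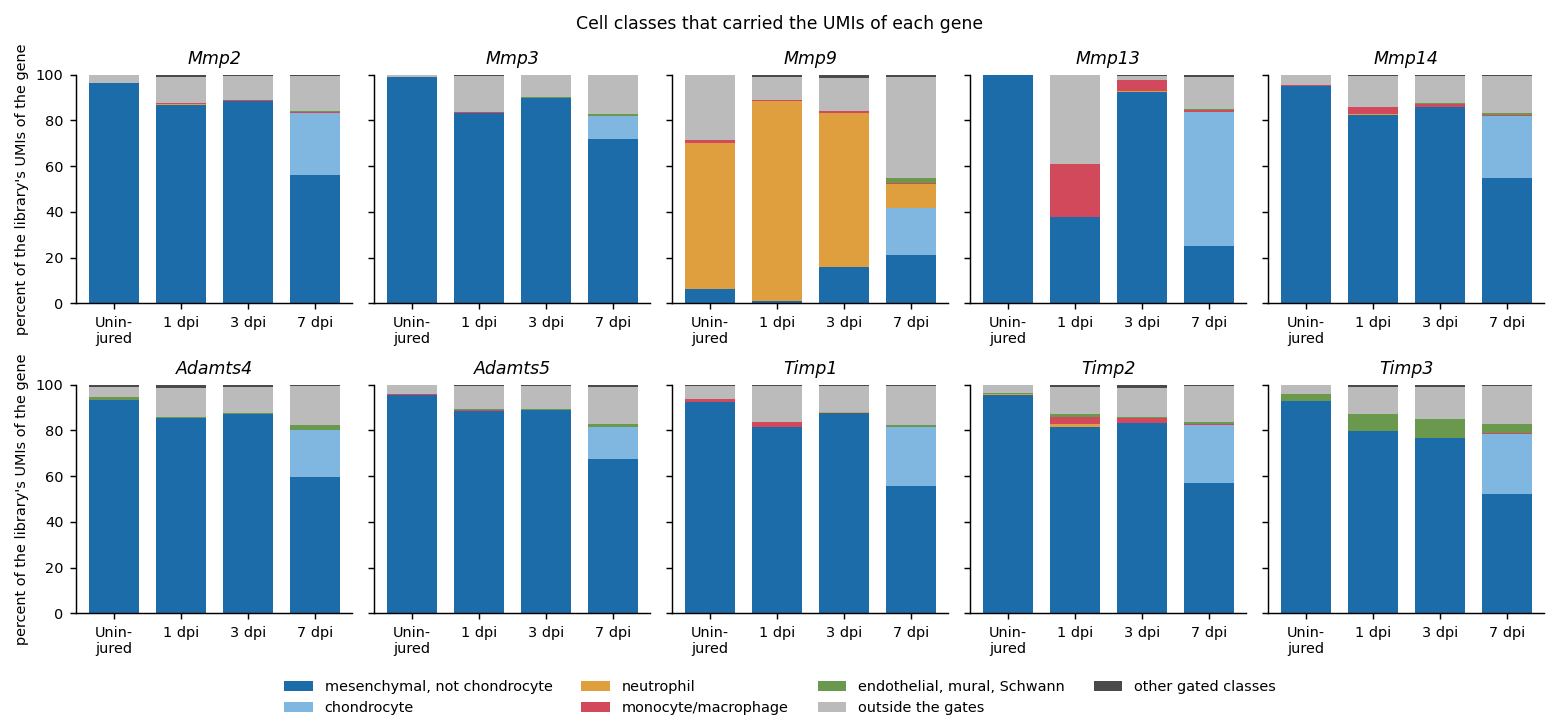
Share of each gene's UMIs (percent, vertical axis) carried by each cell class in the 4 libraries. Blue shades, the mesenchymal cells and chondrocytes, fill most of 8 panels, neutrophils (orange) fill most of the Mmp9 panel at the first 3 time points (63.8%, 87.5% and 67.4%), and at 1 dpi Mmp13 was split between mesenchymal cells, macrophages and cells outside the gates.

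A change in mesenchymal cells is called below where the level was at least 2-fold higher or lower and the 95% interval of the ratio left out 1. At 1 dpi against uninjured muscle 4 of the 10 genes were called higher (Adamts4, Timp1, Mmp13 and Mmp9) and 0 lower, where 7.38% of 13774 genes with at least 50 UMIs were called higher and 4.41% lower. With no filter on cells Timp1 stayed under 2-fold in this step, as given below. The Mmp13 level at 1 dpi rested on 114 UMIs, 106 of them in 8 of 3432 cells, against 3 UMIs in uninjured muscle. The Mmp9 level of mesenchymal cells at 1 dpi was below that of B cells, also given below. The later comparison of 7 dpi with uninjured muscle uses the same uninjured level. From 1 to 3 dpi 2 of the 10 were higher (Mmp9 and Timp1) and 1 lower (Timp3), beside 5.84% and 5.34% of 13570 genes. From 3 to 7 dpi 1 was higher (Mmp13) and 3 were lower (Adamts5, Adamts4 and Mmp3), beside 11.3% and 8.00% of 14568 genes. The median log2 change of the 10 genes was 0.78, -0.15 and -0.15 in the 3 steps, and that of all these genes 0.13, -0.07 and -0.06, after 1 CPM was added to each level. At 7 dpi against uninjured muscle 5 of the 10 were higher (Mmp13, Mmp9, Timp1, Adamts4 and Mmp14) and 3 lower (Adamts5, Timp3 and Timp2), where the shares among 14787 genes were 17.1% and 11.5%. The same cells changed in other ways between these libraries: the summed level of 11 genes that respond to tissue dissociation, such as Fos, Jun and Atf3, was 30250, 18589, 10494 and 9432 CPM, and the mean mitochondrial share was 1.91%, 4.05%, 3.49% and 3.21%. The part of either in the changes below was not tested.

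**Figure D2:**
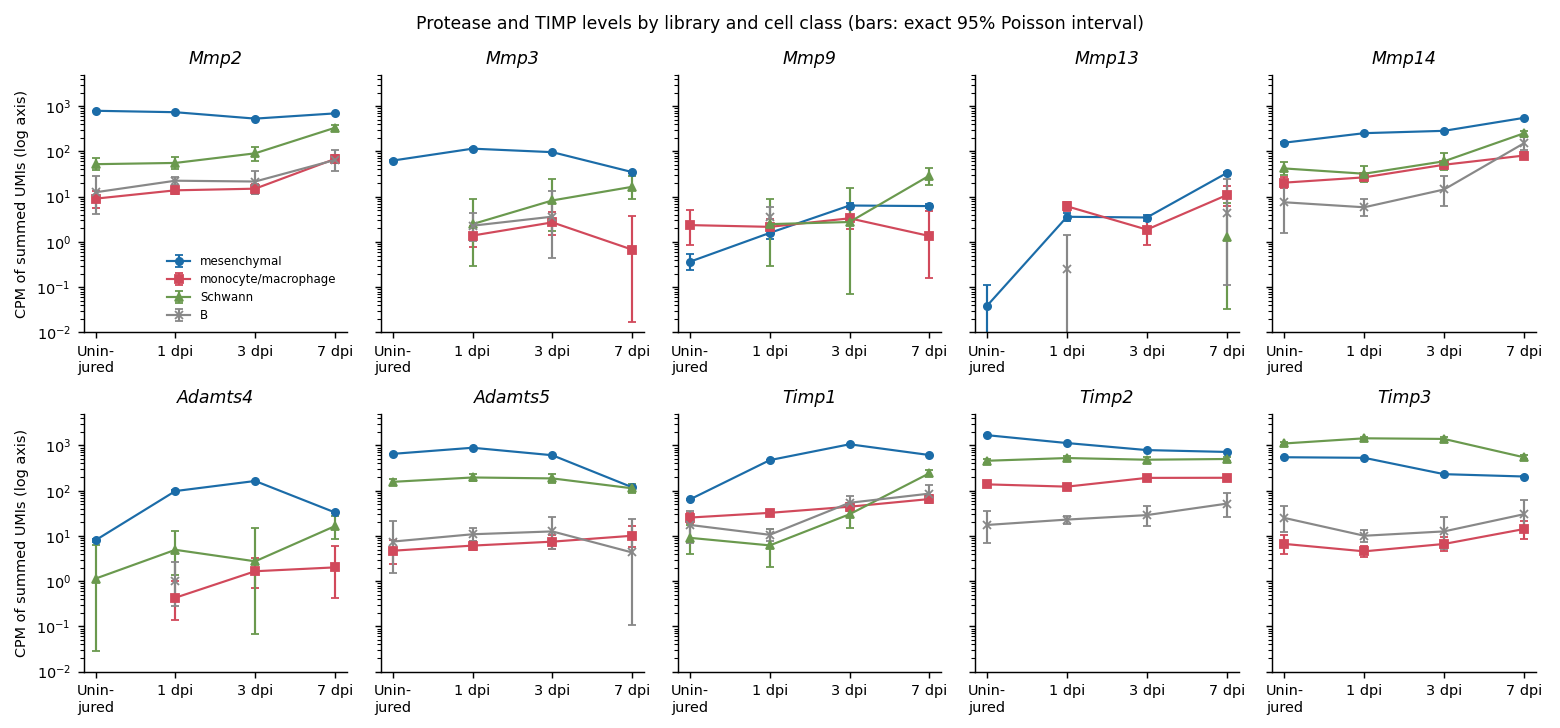
Levels of the 10 genes (CPM of summed UMIs, log axis) by library in mesenchymal cells, monocytes and macrophages, Schwann cells and B cells, with exact 95% Poisson intervals. In mesenchymal cells (blue circles) Mmp13 goes from 0.0391 to 33.2 CPM, Adamts4 from 8.04 to 164 and back to 33.1 CPM, and Adamts5 from 652 to 119 CPM. A level of 0 is not drawn.

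Mmp13, on chromosome 9 (GRCm38, chr9:7272514-7283331, plus strand), was close to absent from uninjured mesenchymal cells and had its highest level at 7 dpi. It stood at 0.0391 CPM in uninjured muscle (3 UMIs, all in 1 cell), 3.59 CPM at 1 dpi, 3.46 CPM at 3 dpi and 33.2 CPM at 7 dpi. The level at 7 dpi was thus set apart from the other libraries, while those at 1 and 3 dpi had overlapping intervals. The ratio of 7 to 3 dpi was 9.59 (interval 8.23 to 11.2). Against uninjured muscle the ratio at 1 dpi was 91.9 (30.7 to 452), which rested on 114 UMIs against 3. Mmp3 lies on the same strand of that chromosome (chr9:7445822-7455975) and followed another course, given below.

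The 250 bases before the start of both genes are shown because Mmp3 and Mmp13 lie on the same chromosome and strand and took different courses in these cells. They are from RefSeq (GRCm38.p6), which gave promoters for 6 of the 10 genes (Mmp3, Mmp13, Mmp14, Timp1, Timp2 and Timp3), and are printed 5′ to 3′ on the strand of the gene, with matches to an AP-1 motif (TGANTCA, both strands) and to a RUNX motif (TGTGGT, both strands) in capitals.
Mmp13, chr9:7272264-7272513, plus strand: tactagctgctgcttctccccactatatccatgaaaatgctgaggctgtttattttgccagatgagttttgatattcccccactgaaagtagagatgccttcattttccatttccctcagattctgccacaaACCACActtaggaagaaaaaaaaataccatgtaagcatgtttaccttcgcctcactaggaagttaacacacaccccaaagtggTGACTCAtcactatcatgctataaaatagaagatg
Mmp3, chr9:7445572-7445821, plus strand: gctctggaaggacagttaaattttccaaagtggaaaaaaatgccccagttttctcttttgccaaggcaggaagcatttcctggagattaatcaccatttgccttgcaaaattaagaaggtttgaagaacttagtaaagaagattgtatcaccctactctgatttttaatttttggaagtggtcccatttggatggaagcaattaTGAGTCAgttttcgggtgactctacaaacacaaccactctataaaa
Both held 1 AP-1 match, TGACTCA from 35 to 29 bases before the start of Mmp13 and TGAGTCA from 46 to 40 bases before that of Mmp3, and such a match was found in 6.75% of 32851 promoters. The promoter of Mmp13 also held a RUNX match, ACCACA, from 118 to 113 bases before the start, as did that of Mmp14 from 114 to 109 bases before its start. This motif was in 14% of all promoters and not in these 250 bases of Mmp3. None of the 6 held the NF-kB motif that was also searched for on both strands, which 1.41% of all promoters held, and the 3 TIMP promoters held none of these motifs. A match of letters does not show that a factor bound there.

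Few mesenchymal cells carried Mmp13. A UMI was found in 1, 15, 13 and 769 of them, 0.0123%, 0.437%, 0.234% and 6.35%, beside 0%, 0.0869%, 0% and 0.943% of B cells, which should lack it and were shallower (median 2520, 2903, 1869 and 1557 UMIs, against 9208, 8150, 6203 and 4061). After each cell was thinned to 1000 UMIs the shares of mesenchymal cells were 0%, 0.204%, 0.166% and 2.33%, with 0, 5, 129 and 464 shallower cells left out. At 1 dpi 8 cells with 4 or more UMIs held 106 of the 114 UMIs (93.0%) and at 3 dpi 8 cells held 168 of 177 (94.9%), whereas at 7 dpi 155 such cells held 1626 of 2454 (66.3%). Without these cells, a step added after the data were seen, the level was 0.253, 0.176 and 11.5 CPM at 1, 3 and 7 dpi. As that step removes cells by their own Mmp13 count, these values describe the remaining cells and are not compared.

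The 8 cells at 1 dpi carried genes of bone-forming cells, chosen for display after their values were seen. All 8 had UMIs of Runx2, the master factor of osteoblasts, and of Alpl, the phosphatase of mineralizing cells, 6 had Bglap (osteocalcin), 6 had Ibsp (bone sialoprotein) and 5 had Sp7 (osterix). Bglap stood at 2247 CPM in them and at 0.918 CPM in the mesenchymal cells of that library with 0 Mmp13 UMIs. None of the 8 had a UMI of Col2a1 or Col10a1, the collagens of cartilage and of hypertrophic cartilage. Of the 8 cells at 3 dpi 6 had Ibsp, 6 had Spp1 (osteopontin), 4 had Bglap and 1 had Col2a1. Of the same 8 cells 5 had Runx2, 5 Alpl, 5 Tnn, 4 Sp7 and 3 Lrrc15. At 7 dpi 77.4% of the 155 cells had Col2a1 and 3.87% had Bglap. Of the same 155 cells 84.5% had Alpl, 71.6% Ibsp, 60.0% Runx2 and 38.1% Sp7. Each of these bone gene shares was lower in cells with 0 Mmp13 UMIs at 7 dpi (Alpl 37.8%, Ibsp 41.7%, Runx2 25.1%). Col2a1 was also in 61.3% of the cells with 0 Mmp13 UMIs at 7 dpi, against 0.351% and 0.307% of such cells at 1 and 3 dpi, and its level in the 155 cells was 1.46-fold theirs (1.42 to 1.49). Against cells with 0 Mmp13 UMIs their level of Spp1 was 9.06-fold, of Ibsp 6.49-fold and of Col10a1 3.59-fold. It was 3.11-fold for Alpl, 2.64-fold for Bglap, 2.35-fold for Sp7 and 1.96-fold for Runx2. The progenitor marker Tnn was at 1.11-fold (1.02 to 1.21), and Lrrc15 was lower, at 0.803-fold (0.674 to 0.951). They were also deeper (median 10734 against 3971 UMIs).

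At 7 dpi the chondrocytes held 58.5% of the library's Mmp13 UMIs and 27.1% of all its UMIs. Their Mmp13 level was 64.2 CPM, against 15.7 CPM in the other mesenchymal cells, a ratio of 4.10 (3.76 to 4.47). Among chondrocytes it was 59.7 CPM where no Col10a1 UMI was seen (3506 cells), 73.4 CPM with 1 to 2 (490 cells), 102 CPM with 3 to 9 (306 cells) and 76.5 CPM with 10 or more (274 cells). The last 2 bins had overlapping intervals (85.4 to 121 and 63.6 to 91.2), and the share of cells with a Mmp13 UMI over the bins was 9.58%, 10.6%, 8.82% and 17.2%, highest in the last. Over the same bins Mmp14 went from 528 to 486, 381 and 324 CPM and Timp2 from 641 to 542, 444 and 376 CPM, while Timp3 went from 178 to 199, 262 and 318 CPM. Of the other subsets the osteochondral progenitors, cells with at least 2 of Lrrc15, Tnn and Runx2, had 12 CPM of Mmp13 at 3 dpi (9.86 to 14.5) and 27.2 CPM at 7 dpi (24.3 to 30.3, 1369 cells). The value at 3 dpi rested on few cells, as 1.41% of 427 carried a UMI, and its interval overlapped that of the ungrouped mesenchymal cells, at 9.65 CPM (7.31 to 12.5) with a UMI in 0.279% of 1077 cells. Adventitial fibroblasts, the cells around vessels, taken as those with at least 3 of Pi16, Dpp4, Cd55 and Sema3c, were at 0.0793, 0, 0 and 2.18 CPM.

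Outside the mesenchyme Mmp13 was seen at 1 dpi in monocytes and macrophages, with 71 UMIs in 34 of 1377 cells (6.12 CPM, at most 11 in a cell) against 0 UMIs in 298 such cells of uninjured muscle, a count that allows up to 3 UMIs. Macrophages positive for C1qa and C1qb had 10.1 CPM and the others 4.13 CPM, a ratio of 2.45 (1.5 to 4.04). On few UMIs this ratio was 0.630 (0.102 to 2.95) at 3 dpi and 3.30 (1.09 to 10.4) at 7 dpi. Macrophages at 3 and 7 dpi had 9 and 16 UMIs, which from fewer cells gave 1.87 and 10.8 CPM, so the level at 7 dpi was not below that at 1 dpi. The mesenchymal markers in B cells were also higher at 7 dpi (4484 CPM) than at 1 dpi (427 CPM). The part of RNA of other cells in the macrophage level was not tested.

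From summed UMIs Mmp3 was highest at 1 dpi, at 115 CPM, against 62.7 CPM in uninjured muscle, 96.2 CPM at 3 dpi and 34.9 CPM at 7 dpi. The order of 1 and 3 dpi turned over under some other settings and in adventitial and interstitial cells, as given below. It held in injury fibroblasts, the Cxcl5 and Prg4 cells, at 132 and 93.8 CPM. A UMI was found in 17.2% of mesenchymal cells at 1 dpi and 19.9% at 3 dpi, so no order of these days is read. The increase of Mmp3 at 1 dpi, 1.84-fold (1.76 to 1.92), stayed under 2-fold, and Mmp3 fell 2.76-fold (2.63 to 2.90) from 3 to 7 dpi. The fall was not seen in adventitial or interstitial fibroblasts: adventitial cells stood at 56.9, 88.1, 104 and 102 CPM and interstitial cells, which carry at least 2 of Smoc2, Col15a1, Gdf10 and C7, at 68.4, 134, 144 and 149 CPM, with ratios of 7 to 3 dpi of 0.980 (0.872 to 1.10) and 1.03 (0.955 to 1.12). In the ungrouped mesenchymal cells, 3260 at 7 dpi, Mmp3 was lower at 7 than at 3 dpi, with a ratio of 0.431 (0.384 to 0.484). Osteochondral progenitors were low on both days, at 19.1 and 14.3 CPM, and tenocytes, the tendon cells, went from 86.4 to 10.9 CPM. Tenocytes were taken as cells with at least 3 of Tnmd, Thbs4, Scx, Fmod and Mkx, and numbered 128 at 3 dpi and 1446 at 7 dpi. Whether these were the same kind of cell on both days was not tested. Chondrocytes carried 11.7 CPM, 4.10-fold lower (3.64 to 4.63) than the other mesenchymal cells at 7 dpi, the reverse of Mmp13 with a ratio of the same size. Over the same step adventitial and interstitial cells went from 1162 and 1977 of 5544 mesenchymal cells to 459 and 964 of 12101. Mmp3 was also concentrated in few cells, as the top 1% of mesenchymal cells held 46.2%, 33.5%, 32.5% and 50.3% of its UMIs, and no cell with a Mmp3 UMI had one of Mmp13 before 7 dpi (0 of 1032, 0 of 590 and 0 of 1103 cells, each of which allows up to 3 such cells). Mmp13 was in just 0.0141%, 0.528% and 0.293% of the Mmp3-negative cells of these libraries, so the zeros do not show that the genes exclude each other. At 7 dpi 4.51% of Mmp3-positive and 6.52% of Mmp3-negative cells had Mmp13.

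Mmp2, the gelatinase of stromal cells, had the smallest ratio of its highest to its lowest level over the 4 libraries among the 10 genes, at 790.5, 735, 530.3 and 692 CPM in mesenchymal cells. No step reached 2-fold, with ratios of 0.930, 0.722 and 1.31. Within subsets it ran from 308 CPM in osteochondral progenitors at 3 dpi to 962 CPM in uninjured interstitial cells, and in the progenitors it was 648 CPM at 7 dpi, a ratio of 2.10 to 3 dpi. The progenitors had a median of 21914 UMIs at 3 dpi and 7140 at 7 dpi. The part of depth in their changes between these days was not tested. Mmp14, the membrane enzyme, was at 156, 253, 285 and 551 CPM, higher in each library than in the one before. Its ratios to the step before were 1.62, 1.13 and 1.93 (1.90 to 1.97), all short of 2-fold, and over the whole course to 7 dpi it rose 3.52-fold (3.45 to 3.60). In adventitial and interstitial cells the ratio of 7 to 3 dpi was 1.39 and 1.43, in osteochondral progenitors 2.12 (2.03 to 2.21) and in tenocytes 2.48 (2.26 to 2.73). B cells had 7.51, 5.82, 14.4 and 151 CPM of Mmp14, the last from 35 UMIs of which 31 lay in 1 cell.

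Mmp9 was carried mainly by neutrophils up to 3 dpi. At 7 dpi mesenchymal cells held 41.6% and cells outside the gates 43.9% of its UMIs. Neutrophils were taken as cells with Ptprc and at least 3 of Ly6g, S100a8, S100a9, Retnlg, Csf3r and Cxcr2. Their Mmp9 level was 1256 CPM (47 cells), 1628 CPM (476 cells), 1509 CPM (266 cells) and 745 CPM (87 cells). They held 63.8%, 87.5%, 67.4% and 10.6% of all Mmp9 UMIs with 0.260%, 4.03%, 1.05% and 0.159% of all UMIs. The level at 3 dpi was close to that at 1 dpi (ratio 0.926, 0.872 to 0.984), and that at 7 dpi was 0.494 of that at 3 dpi (0.405 to 0.597), in cells with a summed mesenchymal marker level of 7858 CPM, against 845 CPM at 3 dpi. Granulocyte progenitors, with Ptprc and at least 2 of Mpo, Elane and Prtn3, had under 1 CPM at 1 and 3 dpi (0.708 and 0.741 CPM).

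In mesenchymal cells Mmp9 was rare, at 0.365, 1.58, 6.37 and 6.18 CPM (28, 50, 326 and 457 UMIs). B cells had 0, 14, 0 and 0 UMIs, and natural killer (NK) and T cells 0, 43, 23 and 9. At 1 dpi B cells held 0.261% of the library's Mmp9 UMIs with 5.53% of all its UMIs, and mesenchymal cells 0.934% with 44.4%. The mesenchymal level at 1 dpi was thus below that of B cells, and below that of NK and T cells (0.803% with 6.59%). At 3 dpi NK and T cells held 1.12% with 5.45% and mesenchymal cells 15.9% with 58.8%. At 7 dpi NK and T cells held 0.819% with 2.40% and mesenchymal cells 41.6% with 74.8%. The mesenchymal level was thus above that of NK and T cells on these days, but by less than 2-fold. How much of the mesenchymal level came from RNA of other cells was not tested. In mesenchymal cells the ratios were 4.32 (2.67 to 7.13) at 1 dpi against uninjured muscle, 4.05 (3.00 to 5.56) from 1 to 3 dpi and 0.970 (0.840 to 1.12) from 3 to 7 dpi. The 6 neutrophil markers summed to 3.41, 157, 114 and 75.8 CPM in the same cells (4, 6, 6 and 6 of the markers had a UMI), so they were high in the same 3 libraries but were lower at 3 than at 1 dpi, when Mmp9 was higher. Their part in it was not tested. The last step depended on how cells were weighed, with a log2 ratio of -0.04 from summed UMIs, 1.34 from the mean of each cell's own CPM and 1.57 from cells thinned to 1000 UMIs.

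Adamts4 rose early and fell late. It was at 8.04 CPM in uninjured mesenchymal cells, 98.2 CPM at 1 dpi, 164 CPM at 3 dpi and 33.1 CPM at 7 dpi, so that both injured libraries up to 3 dpi lay above the other libraries. The ratios were 12.2 (11.2 to 13.3), 1.67 (1.60 to 1.74) and, from 3 to 7 dpi, 4.95-fold lower (4.73 to 5.18). A UMI was found in 5.26%, 27.1%, 38.9% and 13% of cells, and in 0%, 0.348%, 0% and 0% of B cells. After thinning the shares in mesenchymal cells were 0.764%, 6.86%, 10.4% and 3.08%. The course was alike in the subsets: at 1 dpi the ratio was 8.69 (7.51 to 10.1) in adventitial and 12.3 (10.9 to 13.9) in interstitial cells, and from 3 to 7 dpi the 4 subsets that could be compared, and the ungrouped cells, had ratios of 0.227 to 0.402. The highest level in a subset was 199 CPM, in injury fibroblasts, the Cxcl5 and Prg4 cells, at 3 dpi. Myogenic cells went the same way at 1 dpi, with 36 UMIs against 5 (ratio 21.6, 8.46 to 70.6).

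Adamts5 started high and fell late. It was at 652, 889.8, 608 and 119 CPM, so the library at 7 dpi stood apart below the other 3, 5.12-fold lower (5.00 to 5.25) than at 3 dpi and 5.49-fold lower (5.37 to 5.62) than in uninjured muscle. A UMI was found in 89.5%, 87.9%, 81.8% and 29.8% of mesenchymal cells, and after thinning in 43.1%, 50.1%, 43.9% and 11.0%. From 3 to 7 dpi the ratio was 0.464 in adventitial cells, 0.410 in interstitial cells, 0.372 in osteochondral progenitors and 0.235 in tenocytes, so each subset was lower. Each was nearer to 1 than the ratio over all mesenchymal cells, 0.195, and without the chondrocytes the fall was 3.94-fold (3.84 to 4.04). Against uninjured muscle the level at 7 dpi was 1.59-fold lower in adventitial and 1.67-fold lower in interstitial cells, both under 2-fold. It was 3.49-fold lower in tenocytes and 2.86-fold lower in the ungrouped cells. Chondrocytes had 55.7 CPM, 2.77-fold lower (2.62 to 2.93) than the other mesenchymal cells. Adventitial cells carried more Adamts5 than interstitial cells in all 4 libraries, with ratios of 2.28, 2.14, 2.12 and 2.40.

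Timp1 was the TIMP that rose. In the kept mesenchymal cells it was at 64.3 CPM in uninjured muscle, 474 CPM at 1 dpi, 1062 CPM at 3 dpi and 614 CPM at 7 dpi, with ratios of 7.37 (7.14 to 7.61), 2.24 (2.20 to 2.28) and 0.579 (0.572 to 0.586). The rise at 1 dpi was seen in adventitial (7.94-fold, 7.47 to 8.44) and interstitial cells (6.43-fold, 6.10 to 6.78). From 1 to 3 dpi the ratio within subsets was smaller than over all mesenchymal cells, at 1.23 in adventitial, 1.55 in interstitial and 1.38 in injury fibroblasts. The subsets with high Timp1 were injury fibroblasts (1196 and 1650 CPM at 1 and 3 dpi), osteochondral progenitors (1579 CPM at 3 dpi) and tenocytes (448, 3081 and 751 CPM in uninjured muscle, 3 and 7 dpi). Injury fibroblasts were 247 cells at 1 dpi and 773 at 3 dpi, and osteochondral progenitors 8 and 427. Tenocytes were 109, 37, 128 and 1446 cells. From 3 to 7 dpi the ratio was 1.22 in adventitial and 0.887 in interstitial cells, against 0.509 in progenitors and 0.244 in tenocytes.

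The low Timp1 level of uninjured muscle depended on the filter on cell depth. That filter took out 174 uninjured mesenchymal cells (1.92%) of a median 50953 UMIs, and these held 29942 Timp1 UMIs, against 4938 in the 8119 kept cells, a level of 3119 CPM. With no filter the log2 ratio of 1 dpi to uninjured muscle was 0.48 in place of 2.88. Whether the 174 cells came from the uninjured muscles was not tested. The 174 cells had 97.4 CPM of Mmp14, 170.3 CPM of Adamts5, 251 CPM of Timp2 and 188 CPM of Mmp2, all below the kept cells of their library, and 171 CPM of Mmp3, above them. Their mean mitochondrial share was 1.19%. Genes picked after their values were seen also set them apart: Cxcl5, a neutrophil attractant that marks injury fibroblasts, was at 216 CPM against 0.925 CPM in the kept cells, Prg4 at 2165 against 133 CPM, and the cycling genes Cdk1 and Birc5 at 184 and 237 against 9.10 and 9.42 CPM. Such deep cells were taken out of the other libraries too (101, 254 and 681), with Timp1 at 1019, 2211 and 1218 CPM.

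The fall of Timp1 from 3 to 7 dpi also turned on how cells were weighed, with a log2 ratio of -0.79 from summed UMIs and of -0.06 when each cell counted the same. A UMI of Timp1 was found in 18.9%, 40.2%, 56.4% and 75.6% of mesenchymal cells and in 3.82%, 3.30%, 11.3% and 8.49% of B cells, and after thinning in 3.37%, 17.0%, 29.3% and 39.5% of mesenchymal cells. The share at 7 dpi goes against the summed level, so no order of 3 and 7 dpi is read from it. The UMIs were spread over more cells with time, as the top 1% of cells held 54.1%, 25.9%, 19.4% and 14.1% of them.

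Over all mesenchymal cells Timp2 was lower in each later library, at 1686, 1130, 790.2 and 719 CPM. The ratios of single steps, 0.670, 0.699 and 0.909, did not reach 2-fold, and at 7 dpi the level was 2.35-fold lower (2.32 to 2.37) than in uninjured muscle. Adventitial cells had 2.28, 1.84, 1.79 and 1.63 times the level of interstitial cells. From 1 to 3 dpi the ratio was 0.946 in adventitial and 0.970 in interstitial cells, nearer to 1 than over all mesenchymal cells, and injury fibroblasts, with 562 and 481 CPM, were low in Timp2 on both days. Tenocytes went from 2208 CPM in uninjured muscle to 769 and 969.6 CPM at 3 and 7 dpi. In osteochondral progenitors Timp2 was higher at 7 than at 3 dpi, at 720.1 against 353 CPM (2.04, 1.96 to 2.13). The progenitors were shallower at 7 dpi (median 7140 against 21914 UMIs), and the part of depth was not tested.

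Timp3 was at 549, 533, 232 and 206 CPM in mesenchymal cells, so the first 2 libraries lay above the last 2, and it fell 2.30-fold (2.25 to 2.35) from 1 to 3 dpi. When each cell counted the same the log2 ratio of this step was -0.57 in place of -1.20, under 2-fold, and more of the fall came after 3 dpi (-0.82 in place of -0.17). Within subsets the ratio of 3 to 1 dpi was 0.608 in adventitial, 0.646 in interstitial and 0.432 in injury fibroblasts. In osteochondral progenitors it was higher at 7 than at 3 dpi, at 202 against 81.6 CPM (2.47, 2.28 to 2.69), in cells that were shallower at 7 dpi (median 7140 against 21914 UMIs). Timp3 was higher still outside the mesenchyme, in the cells of vessels and nerves. Schwann cells had 1107, 1439, 1394 and 548 CPM, endothelial cells 1010, 1467, 2177 and 573 CPM (22, 56, 106 and 76 cells), and mural cells 919.7 CPM in uninjured muscle (43 cells) and 411 CPM at 7 dpi (115 cells). The summed mesenchymal markers were 17958 CPM in Schwann and 8561 CPM in endothelial cells at 7 dpi, against 2384 and 581 CPM at 3 dpi, when Timp3 was higher in them. In mural cells they were 408 CPM in uninjured muscle and 15872 CPM at 7 dpi. Their part in the lower levels at 7 dpi was not tested.

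Monocytes and macrophages carried UMIs of Timp2, Mmp14, Timp1 and Mmp2 in each library. Timp2 was at 138, 123, 192 and 193 CPM in them and Mmp14 at 20.4, 26.7, 50.7 and 80.9 CPM, beside 17.5, 23.0, 28.9 and 51.7 CPM of Timp2 in B cells. Timp1 was at 25.5, 32.4, 44.3 and 65.4 CPM in the same macrophages and Mmp2 at 9.03, 13.8, 15 and 68.1 CPM. The Mmp2 level of B cells, from 5, 89, 12 and 15 UMIs, was above that of macrophages up to 3 dpi and close to it at 7 dpi. Their Timp1 level, from 7, 42, 30 and 20 UMIs, was lower than in macrophages in uninjured muscle and at 1 dpi and higher at 3 and 7 dpi. How much of either gene in macrophages came from RNA of other cells was not tested. Macrophages with both C1qa and C1qb, markers of mature tissue macrophages, had more Timp2 than the others in all 4 libraries, with ratios of 3.35 (2.70 to 4.16), 2.09 (1.88 to 2.32), 5.71 (4.83 to 6.80) and 3.08 (2.42 to 3.92). Their Mmp14 ratios were 8.26 (4.47 to 15.9), 1.25 (0.989 to 1.58), 2.08 (1.60 to 2.73) and 2.74 (1.89 to 3.99), and the interval at 1 dpi held 1.

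The makeup of the protease and inhibitor UMIs of mesenchymal cells shifted from one pair of enzymes to another. UMIs of different genes can differ in capture, so the shifts are read and not the sizes. In uninjured muscle Mmp2 made up 47.3% and Adamts5 39.1% of the UMIs of the 7 proteases, and Timp2 73.3% of those of the 3 TIMPs. At 7 dpi Mmp2 was again at 47.1% and Mmp14 had gone from 9.36% to 37.5%, while Adamts5 was at 8.08%, after 42.4% and 35.9% at 1 and 3 dpi. Adamts4 reached 9.68% at 3 dpi and Mmp13 2.26% at 7 dpi. Timp1 went from 2.80% of TIMP UMIs to 22.2%, 51.0% and 39.9%, and Timp2 to 52.9%, 37.9% and 46.7%. The 2.80% is for the kept cells and would be higher with the 174 deep cells taken out of the uninjured library. These held 29942 UMIs of Timp1, 2413 of Timp2 and 1243 of Timp3. Protease UMIs per TIMP UMI stood at 0.726 (0.721 to 0.732), 0.981, 0.813 and 0.954. No step reached 2-fold, and the largest was that at 1 dpi. This ratio was close in the chondrocytes (0.972) and the other mesenchymal cells (0.946) at 7 dpi. The log2 change of this ratio was 0.43 (0.42 to 0.45), -0.27 (-0.29 to -0.25) and 0.23 (0.21 to 0.25) in the 3 steps. Cells given equal weight had -0.08 and 0.07 in the last 2 steps.

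**Figure D3:**
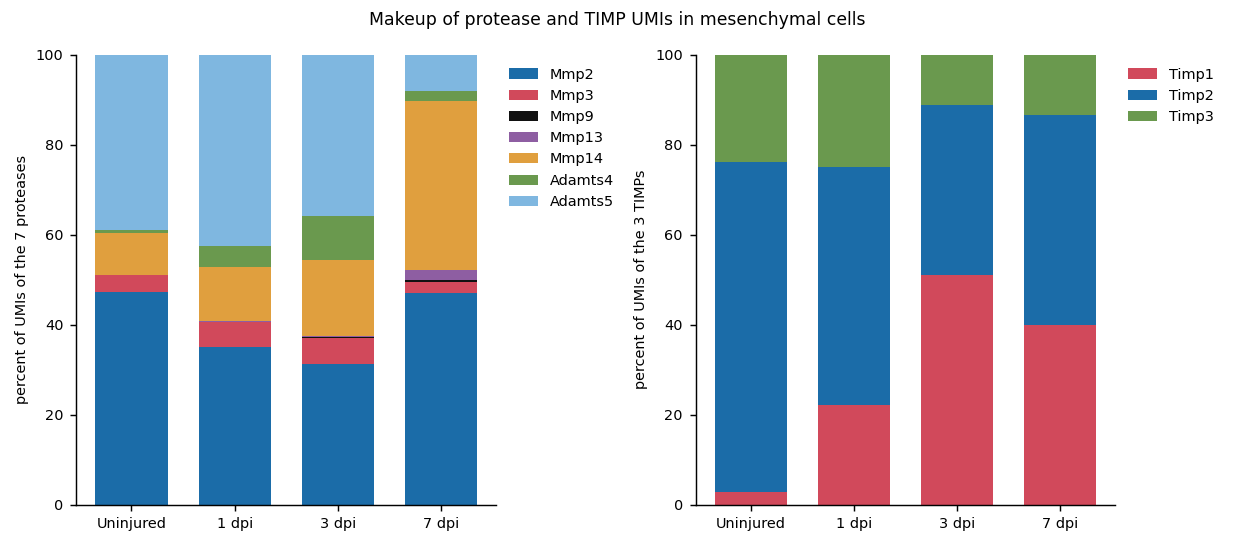
Makeup of the UMIs of the 7 proteases (left) and of the 3 TIMPs (right) in mesenchymal cells of each library (percent, vertical axis). Adamts5 and Mmp14 trade places between 3 and 7 dpi (35.9% to 8.08% and 16.8% to 37.5%), and Timp1 grows from 2.80% to 51.0% of the TIMP UMIs by 3 dpi. The uninjured share of Timp1 depends on the filter on cell depth.

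**Figure D4:**
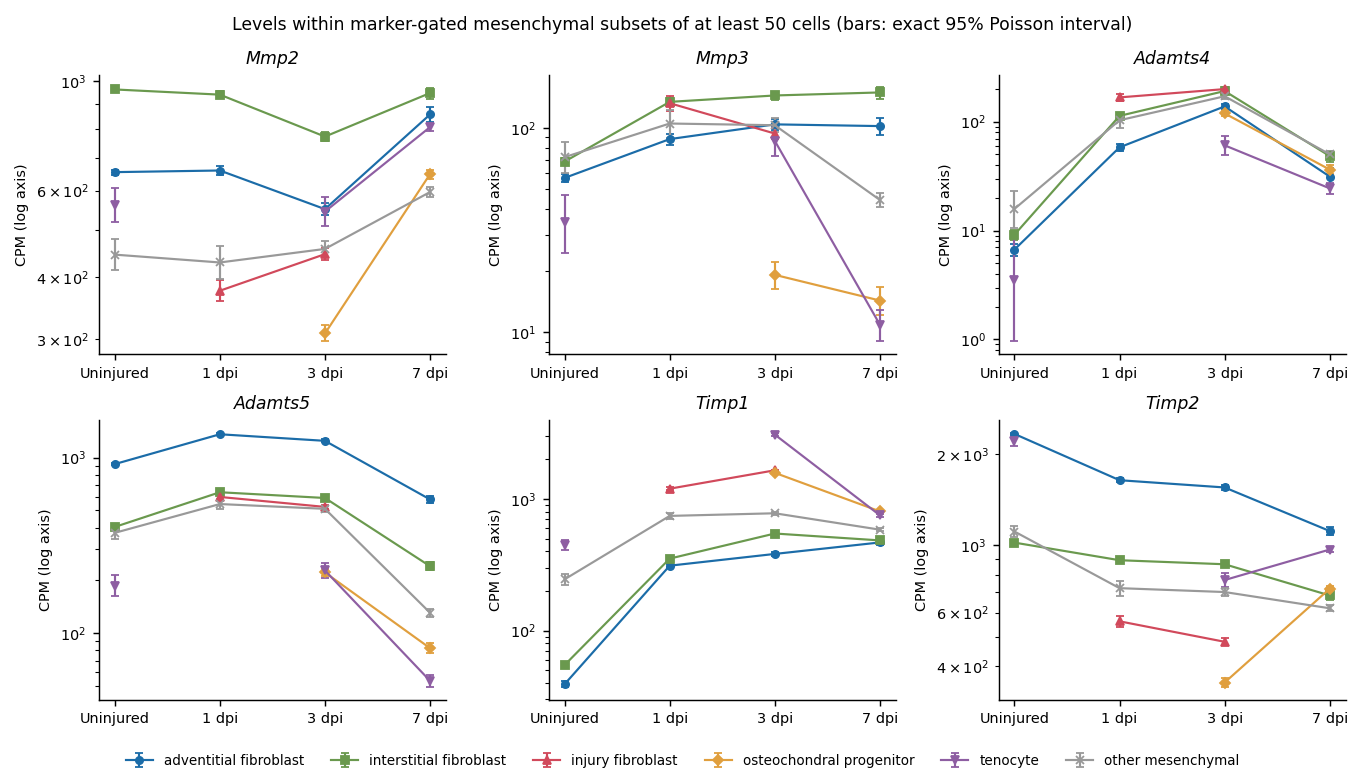
Levels of 6 genes (CPM, log axis) in marker-gated mesenchymal subsets of at least 50 cells by library, with exact 95% Poisson intervals. Mmp3 is level from 3 to 7 dpi in adventitial and interstitial fibroblasts (104 to 102 and 144 to 149 CPM), Adamts5 is lower at 7 than at 3 dpi in each subset drawn on both days, and Timp1 is highest in tenocytes at 3 dpi (3081 CPM).

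Other genes of matrix breakdown were counted by the same rule in mesenchymal cells, and the counts of each list below stand beside 7.38%, 5.84% and 11.3% of all genes called higher in the 3 steps and 4.41%, 5.34% and 8.00% called lower. Of the other MMPs 7, 7 and 8 were measured in the 3 steps, and 1, 1 and 2 were higher and 2, 1 and 2 lower. Mmp19 was higher at 1 dpi (72.5 against 27.7 CPM, 2.62-fold) and Mmp27 lower in each step. Of the other ADAMTS genes 15, 14 and 16 were measured, with 1, 3 and 4 higher and 2, 1 and 1 lower. Adamts9 was 5.91-fold higher at 1 dpi, and Adamts17 was 21.5-fold (13.1 to 38.0) and Adamts16 5.29-fold higher from 3 to 7 dpi, while Adamts18, with 0 UMIs at 3 dpi and 5.83 CPM at 7 dpi, was at least 99.4-fold higher against a floor of 3 UMIs. Against uninjured muscle 8 of 16 other ADAMTS genes were higher at 7 dpi and 0 lower, where 17.1% and 11.5% of all genes were called. Of 8 ADAM genes 2, 1 and 0 were higher and 0 lower in the 3 steps, among them Adam12, a membrane enzyme of activated mesenchymal cells, with 5.86, 20.8 and 94.4 CPM up to 3 dpi.

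Of the cathepsins, lysosomal proteases, 12, 13 and 13 were measured, with 2, 0 and 3 higher and 3, 1 and 1 lower. Ctsk, the collagen-cutting cathepsin of osteoclasts and fibroblasts, was lower at 1 dpi (111 against 269 CPM) and 2.02-fold higher from 3 to 7 dpi. Of the other inhibitors 9, 7 and 9 were measured, with 0, 0 and 2 higher and 3, 2 and 1 lower. Reck, a membrane inhibitor of MMPs, was 2.32-fold lower from 1 to 3 dpi (19.6 against 45.5 CPM). Of the procollagen proteinases and membrane peptidases 13, 12 and 12 were measured, with 0, 1 and 1 higher and 0, 1 and 6 lower, the 6 being Pcsk6, Dpp4, Pcolce2, Mme, Pcsk5 and Htra3. Among the substrates 11, 11 and 12 were measured, with 0, 6 and 4 higher and 2, 0 and 3 lower. Acan, the main substrate of the aggrecanases, was at 1.37 CPM at 3 dpi and 859 CPM at 7 dpi, a step in which both aggrecanases fell. Acan and Col2a1 were themselves markers of the chondrocyte gate, which held cells at 7 dpi only, so their rise is in part set by the gate. Col1a1, Col3a1 and Dcn were markers of the mesenchymal gate. Without the chondrocytes Adamts4 fell 4.25-fold and Adamts5 3.94-fold in this step. Vcan passed in no step, and the collagen Col1a1 went from 4900 to 1761, 4228 and 13392 CPM.

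The genes most like each member were sought by Pearson's r of log2(CPM + 10) over 38 pairs of cell class and library with at least 50 cells, among 12890 genes. These points share libraries and depth, and r is a description. Mmp2 was most like Bmp1 (0.972), which matures procollagen, Fkbp7 and Col5a1, and Mmp14 most like Fkbp10 (0.937), Efemp2 and Aebp1. Mmp9 was most like the neutrophil genes Fpr1 (0.973), Ly6g and Il1f9. Mmp3 was most like Adgrd1 (0.959), Clec3b and Osr1, and Mmp13 like Gzmg (0.952), a granzyme, Dlx5 (0.908), an osteoblast factor, and Galnt5. The best matches were Tnxb (0.948), Lamc1 and Col5a3 for Adamts5, and Slc39a14 (0.874), Il1r1, the interleukin 1 receptor, and Ltbp1 for Adamts4. Timp1 was most like Dnm3os (0.923), Thbs4 and Prrx2, Timp2 like Serpinb6a (0.893), Laptm4a and Ctsl, and Timp3 like Dlc1 (0.972), Stox2 and Uaca. No pair of the 10 genes shared a name in these lists of 3.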

How the data were processed

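The deposited tables are raw UMI counts per gene and cell, made by the authors with Cell Ranger 5.0.0 on mm10; Seurat 3.1.1 is named in the processing notes, and the notes allow for down-sampling of reads between libraries. Cells were kept within 2 SD of the library mean of log10 UMIs and genes and at 10% or less mitochondrial UMIs, and the 7.5% with the highest Scrublet score (scanpy 1.11.5) per library were removed as doublets. Cells were gated on raw UMIs of marker genes into 13 classes, with the number of markers asked for set after a look at the clusters, and 7.35%, 16.8%, 25.7% and 29.3% of kept cells met no gate. Counts were summed per class and library and divided by the class total (CPM), with exact 95% Poisson intervals; ratios have Clopper-Pearson intervals from the conditional binomial. PCR copies are collapsed by UMI, and intervals and floors (3 UMIs) cover counting error only. With 1 library per time point no test between time points was made, and cells are not replicates. The code was checked on simulated data. The members, gene lists and markers were chosen with earlier results of these data known. Named were the 10 genes, list genes past 2-fold, and the 3 genes most like each member. List genes were up to 4 per direction, except the 6 procollagen proteinases and membrane peptidases lower from 3 to 7 dpi. Vcan was named though it passed in no step. Others are said to be chosen after their values were seen. Alternatives changed the doublet removal, the depth filter, the gate, the weight of cells, the depth (1000 UMIs), free RNA and the fold. The plasminogen system list is not reported here.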

Additional observations from a re-analysis of the deposited data

Results flagged for a closer look

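In 3 instances a gene went one way in mesenchymal cells and the other way in another class over the same step, each by at least 1.4-fold with 100 or more UMIs in each sum. Timp2 was 1.56-fold higher in monocytes and macrophages from 1 to 3 dpi, where its ratio in mesenchymal cells was 0.699. In myogenic cells Timp2 at 1 dpi had 1.84 times its uninjured level (366 against 199 CPM, 70 and 146 cells), against a ratio of 0.670 in mesenchymal cells. Timp3 was 1.48-fold higher in endothelial cells from 1 to 3 dpi (2177 against 1467 CPM, 106 and 56 cells), against 0.435 in mesenchymal cells. With 1 library per time point these differences were not tested.

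Cells that met no gate held 2 further signals. At 1 dpi 2 ungated cells carried 52 and 44 Mmp13 UMIs, 96 of the 303 in the library, where the ungated cells of uninjured muscle had 0. At 7 dpi 1 ungated cell carried 175 of the 1099 Mmp9 UMIs of its library, where the highest ungated cell of uninjured muscle had 24. That cell, of 21012 UMIs, also had 486 UMIs of Ctsk, 428 of Acp5, 53 of Atp6v0d2, 10 of Ocstamp and 9 of Dcstamp, genes of osteoclasts, and 0 of Calcr. It was 1 of 8 cells at 7 dpi with 3 or more osteoclast markers and Ptprc, of which 6 carried Mmp9 (200 UMIs in all), and there were 0, 0 and 2 such cells in the earlier libraries.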

How the results depend on the processing

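Of the 30 step changes of the 10 genes in mesenchymal cells, all 30 stayed within their interval under a stricter gate and, in an alternative added after the data were seen, without shared barcodes, and 28 did without doublet removal. So did 27 of 30 without the cells with 4 or more Mmp13 UMIs and 23 of 30 with the class of each cell's cluster. Fewer did elsewhere: 16 of 28 with the B cell level subtracted and 15 of 30 with no filter on cells. With a 2 SD filter on linear UMIs and genes 11 of 30 did, with the mean of CPM per cell 9 of 30, and in thinned cells 6 of 28. Some changes turned over under other settings. Mmp3 from 1 to 3 dpi had a log2 ratio of 0.02 with a 2 SD filter on linear UMIs, 0.19 from the mean of CPM per cell and 0.2 in thinned cells. Timp3 at 1 dpi had 0.05 with the linear filter and 0.01 from the mean of CPM per cell, and Timp3 from 3 to 7 dpi had 0.03 with no filter on cells. Timp1 at 1 dpi, called higher with the filter, stayed under 2-fold with no filter on cells. The 2 genes called higher from 1 to 3 dpi became 1 with the mean of CPM per cell, 0 in thinned cells and 1 at 4-fold, and the 1 called lower became 0 in each of these 3. The 1 called higher from 3 to 7 dpi became 2 in thinned cells and 2 at 1.5-fold. Among genes with at least 500 UMIs the shares called higher were 4.01%, 3.62% and 6.14%, and those called lower 2.26% and 3.15% in the first 2 steps. The log2 change of the protease to TIMP ratio kept its sign: at 1 dpi it was 0.49 with the linear filter and 0.58 with no filter, from 1 to 3 dpi -0.17 and -0.42 with these, -0.08 from the mean of CPM per cell, -0.1 in thinned cells and -0.25 with the B cell level subtracted, and from 3 to 7 dpi 0.16 with the linear filter, 0.07 from the mean of CPM per cell, 0.04 in thinned cells and 0.14 with the B cell level subtracted. The cause was not tested. No paired analysis was possible because each time point was 1 library, and genes with few UMIs, such as Mmp9 and Mmp13 in uninjured mesenchymal cells (28 and 3 UMIs), are limited by depth.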

Other observations

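Timp1 was detected in a larger share of mesenchymal cells with Mmp3 than of those without it in each library: 33.3%, 62.5%, 66.3% and 80.7% of mesenchymal cells with a Mmp3 UMI also had one of Timp1 in uninjured muscle and at 1, 3 and 7 dpi, against 16.7%, 35.6%, 54.0% and 75.1% of the others. Cells with Mmp3 were deeper, with a median of 10672, 10405, 8395 and 5889 UMIs against 8997, 7764.5, 5708 and 3900, so the shares are given as values only.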
